A study of Mus musculus with 4 samples.

Results

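The proteasome genes were taken as all rows of the table whose symbol begins with Psm, a letter from a to g and a number, without pseudogenes. Of 13265 genes in the table, 47 matched. One of them, *Psmc3ip*, encodes a cofactor of meiotic recombination named after a proteasome subunit that it binds, so sums are given over the other 46. *Psmg3* had 13 UMIs in all cells and was at 0 in 1 set of cells, and the remaining 45 had at least 200 UMIs each, the minimum used when genes were counted.

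The proteasome degrades proteins that carry ubiquitin chains. Its 20S core is a barrel of α rings (*Psma* genes) around β rings (*Psmb* genes), and only the β subunits encoded by *Psmb5*, *Psmb6* and *Psmb7* cut peptide bonds. The 19S cap (*Psmc* ATPases and *Psmd* subunits) binds, unfolds and feeds in the substrate. In immune cells, and in other cells under interferon-γ, the catalytic subunits encoded by *Psmb8*, *Psmb9* and *Psmb10* are built into new particles in place of *Psmb5*, *Psmb6* and *Psmb7*, respectively. Such immunoproteasomes favor peptides that fit major histocompatibility complex (MHC) class I. The PA28 ring (*Psme1* and *Psme2*), also induced by interferon-γ, opens the core in place of the 19S cap.

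The cells were CD4+ T cells with the YFP label, sorted out of small intestine and read by scRNA-seq, from mice aged 7 to 8 months on a C57BL/6 background. All mice carried *Il17a*-Cre and a *Rosa26* reporter that turns on YFP after Cre has acted, so YFP marks cells that have expressed *Il17a*, whatever they express later. In TGFβR-KO mice Cre deletes floxed *Tgfbr2*, in TGFβR-CA mice it releases a constitutively active *Tgfbr1* from a floxed stop, and TGFβR-WT mice had neither allele. The table holds 2975 TGFβR-KO cells, 1098 TGFβR-CA cells and 1007 TGFβR-WT cells in 8 clusters named by the authors. TGFβR-KO and TGFβR-CA are 1 sample each, and the number of mice behind a sample is not given in the sources used here. The TGFβR-WT cells of 2 samples carry 1 name, and their name suffixes split them in a larger set (709 cells) and a smaller set (298 cells) that no label ties to either sample. TGFβR-KO and TGFβR-CA were sequenced in different batches, each with TGFβR-WT cells, so batch and genotype cannot be told apart between them.

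No test between conditions was made, since TGFβR-KO and TGFβR-CA are 1 sample each, the TGFβR-WT sets are not tied to their samples, and cells are not replicates. The level of a gene in a group of cells is the sum of its corrected UMIs divided by the sum over all genes, times 10000, and a difference is called at a ratio of at least 1.5 against both TGFβR-WT sets. The difference between these 2 sets is the only measure of spread, and it is not known to be one between libraries. It also holds their different cluster shares, such as 27 of 709 and 52 of 298 cells in Pre-tumorigenic. Because the libraries were made from the 3′ end of transcripts, levels are compared between groups of cells and not between genes.

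The sets differed in ways that the proteasome genes share with the rest of the table. Median corrected UMIs per cell ran from 3440.0 to 3984.5 over the 4 sets. Ribosomal protein genes took 27.98% of UMIs in TGFβR-KO, 24.8% and 22.2% in the larger and smaller TGFβR-WT sets and 23.7% in TGFβR-CA. Over all genes with 200 UMIs, the median log2 ratio to pooled TGFβR-WT was -0.17 in TGFβR-KO and -0.11 in TGFβR-CA, so most genes sat below 0 in both. All 7 T cell markers were detected in each set, with a summed level of 95.2 in TGFβR-KO and 111 to 115 in the others. The marker lists of B, plasma, myeloid, epithelial, CD8 T, γδ T and stromal cells each summed to at most 0.755 in any set. In each set 3 of 4 γδ T cell markers were at 0. The authors had removed γδ T cells by their *Tcrg* and *Trg* genes, and epithelial cells, so the γδ T and epithelial lists do not check purity. Barcodes occurring in more than 1 set numbered 16, of which 14 paired a TGFβR-KO cell with one of the larger TGFβR-WT set, and 24 of the 32 cells that carry them lie in the Cycling cluster. *Tgfbr1* was at 0.792 in TGFβR-CA, 0.219 in TGFβR-KO and 0.367 and 2.79 in the TGFβR-WT sets, which goes against a raised level in TGFβR-CA, so this gene does not check the labels, which are used as given. *Tgfbr2* was at 1.48 in TGFβR-KO, and 3′ counts need not read the deleted part.

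Proteasome genes made up 0.701% of UMIs in TGFβR-KO. Their summed level was 70.1 in TGFβR-KO, 66.2 and 64.3 in the larger and smaller TGFβR-WT sets, and 61.7 in TGFβR-CA. TGFβR-KO was thus above and TGFβR-CA below both TGFβR-WT sets, by amounts of 0.10 and -0.09 on the log2 scale against pooled TGFβR-WT. Single cells spread far more widely than the sets did. In TGFβR-KO the summed level per cell was 43.9 at the 10th percentile, 67.2 at the median and 97.8 at the 90th, and in TGFβR-CA these values were 38.3, 59.7 and 85.7. A cell of either condition had UMIs for a median of 16 of the 46 genes. With this denominator the excess in TGFβR-KO was not spread over all members. Without the 5 highest (*Psmb8*, *Psme1*, *Psmb1*, *Psma7* and *Psme2*) the log2 ratio of TGFβR-KO to TGFβR-WT was -0.0027, whereas that of TGFβR-CA was -0.07. Of these 5, *Psma7* was not above both TGFβR-WT sets in TGFβR-KO. Leaving ribosomal protein and mitochondrial genes out of the denominator raised every TGFβR-KO ratio by 0.08, so the value near 0 depends on the denominator.

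No member reached a ratio of 1.5 above both TGFβR-WT sets in TGFβR-KO, where 2.76% of 7467 genes did, and none was that far below, where 5.45% did. With the looser rule of at least 25% higher, *Psmb8*, *Psmb10* and *Psme2* were above both sets (background 5.37%), and at least 20% lower were *Psmd5*, *Psmf1* and *Psmg1* (background 16.8%). In TGFβR-KO, 13 of the 45 members lay above both TGFβR-WT sets by any amount, a share of 28.9% beside 18.1% of all genes, and 16 lay below both, a share of 35.6% beside 50.6%. In TGFβR-CA, *Psmd13* alone was at least 1.5 times higher than in both sets (background 1.21%) and no member was that far lower (background 2.73%). With the looser rule, *Psmd13* was still the only higher member (background 3.98%) and *Psme3* the only lower one (background 10.9%). By any amount, 9 of 45 members were above both sets in TGFβR-CA (background 19.4%) and 19 below both (background 41.0%). TGFβR-KO above and TGFβR-CA below both TGFβR-WT sets was the pattern of 6 members, beside 7.49% of 7465 genes, and the opposite that of 4, beside 9.11%. For scale, 1 member (*Psma2*) was at least 1.5 times higher and 1 (*Psmc3*) at least 1.5 times lower in the larger than in the smaller TGFβR-WT set.

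**Figure D1:**
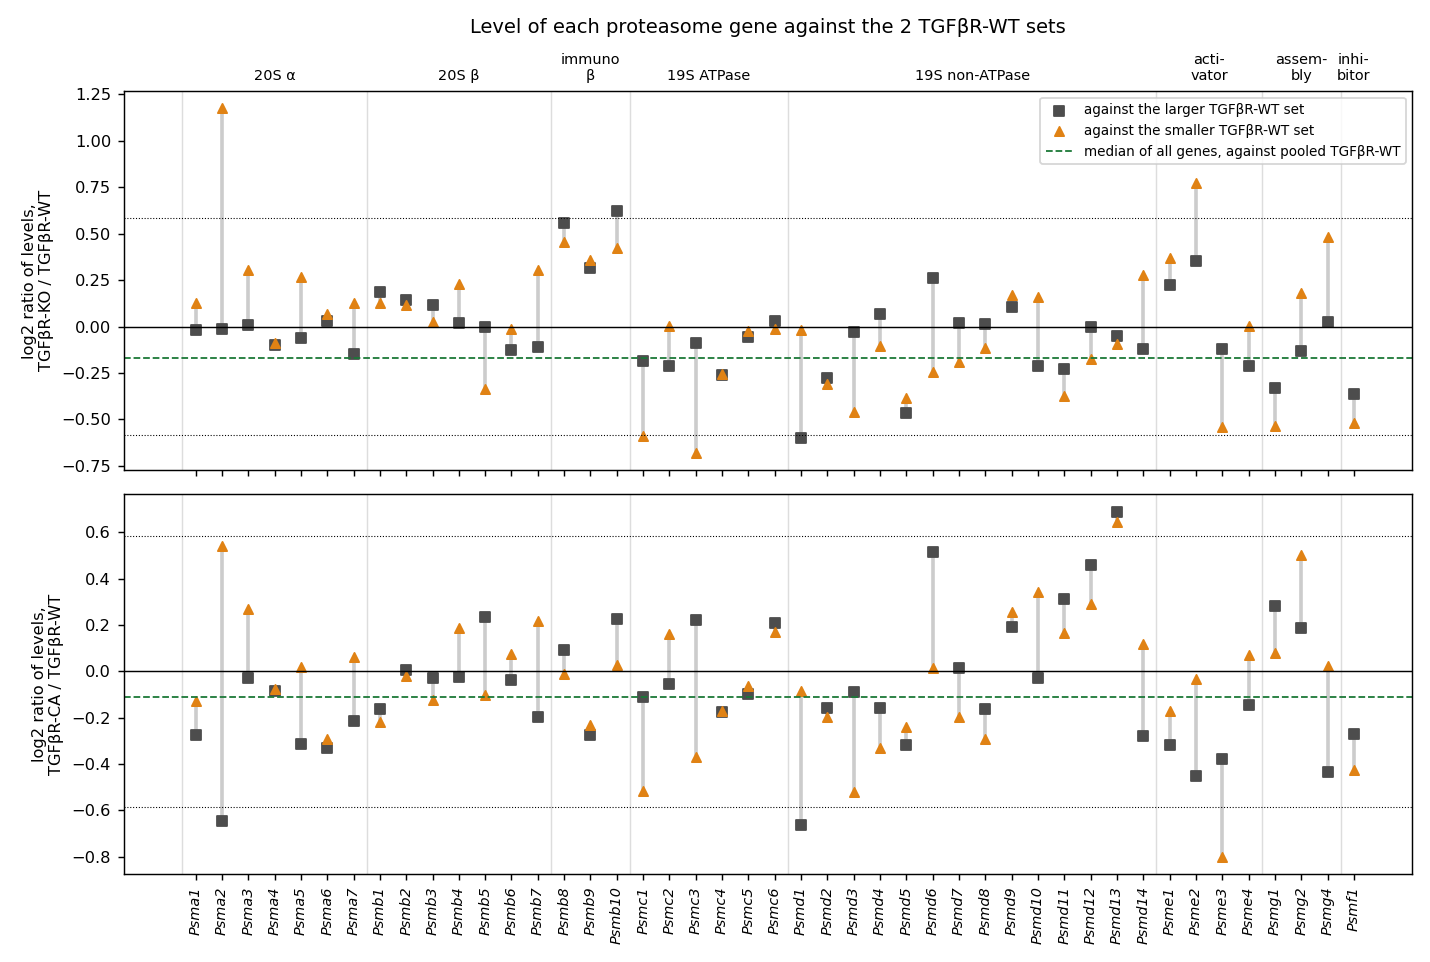
Log2 ratio of the level of each of 45 proteasome genes in TGFβR-KO (top) and TGFβR-CA (bottom) to the larger (squares) and smaller (triangles) TGFβR-WT set, with genes grouped by role; gray bars join the 2 ratios of a gene, dotted lines mark a ratio of 1.5 in either direction and the dashed line is the median of all genes against pooled TGFβR-WT. The immunoproteasome genes lie above 0 with both symbols in TGFβR-KO, while *Psma2* shows how far the 2 TGFβR-WT sets can lie apart.

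The immunoproteasome subunit genes were higher in TGFβR-KO than in both TGFβR-WT sets, and the constitutive genes that they replace were not. *Psmb8*, which encodes β5i, was at a level of 8.51 in TGFβR-KO, 5.78 and 6.21 in the larger and smaller TGFβR-WT sets and 6.16 in TGFβR-CA. *Psmb9* (β1i) was at 2.51 in TGFβR-KO, 2.02 and 1.96 in the TGFβR-WT sets and 1.67 in TGFβR-CA. *Psmb10* (β2i) was at 1.71 in TGFβR-KO, 1.11 and 1.28 in the TGFβR-WT sets and 1.30 in TGFβR-CA. For all 3 genes the TGFβR-KO value was the highest of the 4, and TGFβR-CA lay below both TGFβR-WT sets for *Psmb9* only. Against pooled TGFβR-WT the ratios in TGFβR-KO were 1.44 for *Psmb8*, 1.26 for *Psmb9* and 1.47 for *Psmb10*, all short of 1.5.

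The constitutive counterparts showed no such order. *Psmb5* (β5) was at 1.20 in TGFβR-KO, 1.20 and 1.52 in the TGFβR-WT sets and 1.41 in TGFβR-CA. *Psmb6* (β1) was at 1.72 in TGFβR-KO, 1.88 and 1.74 in the TGFβR-WT sets and 1.83 in TGFβR-CA. *Psmb7* (β2) was at 0.885 in TGFβR-KO, 0.954 and 0.717 in the TGFβR-WT sets and 0.833 in TGFβR-CA. TGFβR-KO lay between the TGFβR-WT sets for *Psmb7*, just below both for *Psmb6* and next to the larger set for *Psmb5*. The summed level of *Psmb8*, *Psmb9* and *Psmb10* over that of *Psmb5*, *Psmb6* and *Psmb7* was 3.34 in TGFβR-KO, 2.21 and 2.38 in the TGFβR-WT sets and 2.24 in TGFβR-CA. On the log2 scale TGFβR-KO exceeded pooled TGFβR-WT by 0.56, while the 2 TGFβR-WT sets had an SD of 0.075 between them, and TGFβR-CA differed from pooled TGFβR-WT by -0.016. Each ratio is taken within the same cells, so the denominator of all UMIs does not enter.

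*Psmb8* and *Psmb9* lie side by side in the MHC class II region of chromosome 17, with *Tap1* between them and overlapping *Psmb9* on the opposite strand, while *Psmb5*, *Psmb6* and *Psmb10* lie on chromosomes 14, 11 and 8. In GENCODE M21 on GRCm38, *Psmb8* spans chr17:34197721-34201454 on the plus strand, *Psmb9* chr17:34181987-34187764 on the minus strand and *Psmb10* chr8:105935735-105938444 on the minus strand. The promoters of *Psmb8* and *Psmb9*, which were higher in TGFβR-KO, and of their counterparts *Psmb5* and *Psmb6*, which were not, are shown from the RefSeq table of GRCm38.p6, from 250 bases before to 50 bases after the start site and in the direction of the gene. They occupy chr17:34197945-34198244 on the plus strand (*Psmb8*), chr17:34187281-34187580 on the minus strand (*Psmb9*), chr14:54617946-54618245 on the minus strand (*Psmb5*) and chr11:70525107-70525406 on the plus strand (*Psmb6*). Capitals mark matches, on either strand, to the 4 motifs that were searched.
Psmb8: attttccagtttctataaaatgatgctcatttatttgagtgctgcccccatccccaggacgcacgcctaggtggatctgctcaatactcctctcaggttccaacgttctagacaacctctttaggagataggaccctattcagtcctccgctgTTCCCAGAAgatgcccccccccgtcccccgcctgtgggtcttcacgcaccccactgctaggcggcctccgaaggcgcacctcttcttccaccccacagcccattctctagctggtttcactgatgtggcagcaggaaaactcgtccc
Psmb9: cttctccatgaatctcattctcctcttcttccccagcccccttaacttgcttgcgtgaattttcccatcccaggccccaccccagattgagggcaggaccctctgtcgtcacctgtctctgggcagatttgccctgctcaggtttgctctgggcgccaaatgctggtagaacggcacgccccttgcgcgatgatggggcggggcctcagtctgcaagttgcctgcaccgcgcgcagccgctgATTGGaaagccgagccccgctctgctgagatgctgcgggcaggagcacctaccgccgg
Psmb5: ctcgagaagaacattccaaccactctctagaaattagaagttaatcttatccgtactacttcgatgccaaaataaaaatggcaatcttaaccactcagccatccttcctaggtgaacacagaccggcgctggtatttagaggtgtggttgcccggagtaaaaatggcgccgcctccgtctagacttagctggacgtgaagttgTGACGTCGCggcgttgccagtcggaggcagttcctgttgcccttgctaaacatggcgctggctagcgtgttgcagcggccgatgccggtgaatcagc
Psmb6: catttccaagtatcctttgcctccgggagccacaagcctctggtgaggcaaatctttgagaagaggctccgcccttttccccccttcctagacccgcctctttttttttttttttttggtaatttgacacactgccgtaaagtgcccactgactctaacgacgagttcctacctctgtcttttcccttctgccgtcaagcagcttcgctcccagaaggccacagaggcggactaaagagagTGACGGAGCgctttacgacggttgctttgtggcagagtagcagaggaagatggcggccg

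The motifs were the interferon-γ activated site GAS (TTCNNNGAA, its own reverse complement), the interferon-stimulated element (GAAANNGAA), the antioxidant response element (TGACNNNGC), through which NRF factors act on proteasome genes, and the NF-Y box (CCAAT), each on both strands. The *Psmb8* window holds a GAS match, TTCCCAGAA, that begins 97 bases before the start site. The *Psmb9* window holds the NF-Y box on the opposite strand (ATTGG), and the *Psmb5* and *Psmb6* windows hold antioxidant response matches, TGACGTCGC and TGACGGAGC. Each of these windows holds 1 match, so no matches overlap. Of 32851 promoters in the table, 8.3% held GAS, 8.56% the interferon-stimulated element, 12.4% the antioxidant response element and 37.4% the NF-Y box. Of 42 promoter windows of 39 members, 3 held GAS (*Psmb8*, *Psmd2* and *Psmg1*), 7 the interferon-stimulated element, 6 the antioxidant response element and 13 the NF-Y box, shares of 7.14%, 16.7%, 14.3% and 31.0%. The interferon-stimulated element was in windows of *Psmb3*, *Psmb4*, *Psmc2*, *Psmd4*, *Psmd9*, *Psme1* and *Psmg4*. It was in none of *Psmb8*, *Psmb9*, *Psmb10* or *Psme2*. The table had no entry for *Psmb1*, *Psmb2*, *Psmb7*, *Psmc3*, *Psmd3*, *Psmd7* and *Psmg2*. The windows do not all hold the start of the annotated transcripts. In GENCODE, 2 of 2 *Psmb5* transcripts, 2 of 4 of *Psmb6* and 3 of 7 of *Psmb9* start inside the window, and none of 7 of *Psmb8* does. The *Psmb10* window, in which 1 of 7 transcripts starts, held none of the 4 motifs and is not shown.

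The other 20S genes differed little between conditions. In TGFβR-KO the median log2 ratio to pooled TGFβR-WT was 0.04 over the 7 α genes and 0.08 over the 7 constitutive β genes, beside -0.17 over all genes. *Psmb1*, a noncatalytic β gene, was at 4.44 in TGFβR-KO, 3.91 and 4.06 in the TGFβR-WT sets and 3.50 in TGFβR-CA. TGFβR-KO lay above and TGFβR-CA below both TGFβR-WT sets. *Psma6* was at 1.35 in TGFβR-CA, 1.69 and 1.65 in the TGFβR-WT sets and 1.73 in TGFβR-KO, and only the TGFβR-CA value stands apart. *Psma2* was at 1.46 and 0.643 in the 2 TGFβR-WT sets, so the TGFβR-WT sets lay farther apart than either condition from the nearer of them, with 1.45 in TGFβR-KO and 0.935 in TGFβR-CA. The annotation places *AW209491* on the same strand within the span of *Psma2*, so their reads could be confused.

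None of the 19S cap genes was called in TGFβR-KO. The median log2 ratio was -0.20 over the 6 ATPase and -0.06 over the 14 non-ATPase genes, beside -0.17 over all genes. Leaving ribosomal protein and mitochondrial genes out of the denominator raised every ratio by 0.08, to medians of -0.13, 0.01 and -0.09, respectively. *Psmd5*, a chaperone of cap assembly, was at 0.315 in TGFβR-KO, 0.435 and 0.412 in the TGFβR-WT sets and 0.349 in TGFβR-CA, so it was lower in both conditions than in either TGFβR-WT set. *Psmd2*, a scaffold subunit, was at 0.910 in TGFβR-KO and 1.10 and 1.13 in the TGFβR-WT sets. *Psmc4*, an ATPase of the base, was at 0.897 in TGFβR-KO, 1.07 in both TGFβR-WT sets and 0.951 in TGFβR-CA. In TGFβR-CA, *Psmd13* was at 0.180 beside 0.112 and 0.115 in the TGFβR-WT sets and 0.108 in TGFβR-KO, but it had only 245 UMIs in the table, and with 0.1 UMIs per 10000 added to each level it was no longer called. *Psmd12* and *Psmd11*, both subunits of the lid, were also higher in TGFβR-CA, at 0.988 and 0.888, than in the TGFβR-WT sets, where *Psmd12* was at 0.718 and 0.808 and *Psmd11* at 0.714 and 0.791. *Psmc6* was at 1.17 in TGFβR-CA and 1.01 and 1.04 in the TGFβR-WT sets. *Psmd9* was at 0.306 in TGFβR-CA, 0.267 and 0.256 in the TGFβR-WT sets and 0.287 in TGFβR-KO.

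Of the activators, the PA28 genes were above both TGFβR-WT sets in TGFβR-KO, as the immunoproteasome genes were, and below both in TGFβR-CA, where among the immunoproteasome genes only *Psmb9* was. *Psme1* (PA28α) was at 4.79 in TGFβR-KO, 4.10 and 3.71 in the TGFβR-WT sets and 3.29 in TGFβR-CA. *Psme2* (PA28β) was at 3.39 in TGFβR-KO, 2.65 and 1.99 in the TGFβR-WT sets and 1.94 in TGFβR-CA. Both genes put TGFβR-KO highest and TGFβR-CA lowest of the 4 sets, although for *Psme2* the smaller TGFβR-WT set came close to TGFβR-CA. They are neighbors on chromosome 14, and the annotation holds a copy of the second, *Psme2b*, so its reads could be split. *Psme3* (PA28γ, a nuclear activator that interferon-γ does not induce) was at 0.447 in TGFβR-KO, 0.487 and 0.651 in the TGFβR-WT sets and 0.374 in TGFβR-CA. *Psme4* (PA200) was at 0.314, 0.363, 0.313 and 0.329 in the same order, and TGFβR-KO and TGFβR-CA did not stand apart from the TGFβR-WT sets. *Psmf1*, the proteasome inhibitor PI31, was at 0.276 in TGFβR-KO, 0.355 and 0.396 in the TGFβR-WT sets and 0.294 in TGFβR-CA. The assembly chaperone *Psmg1* was at 0.273 in TGFβR-KO, 0.343 and 0.396 in the TGFβR-WT sets and 0.418 in TGFβR-CA. *Psmg2*, its partner, was at 0.596 in TGFβR-CA and 0.523 and 0.420 in the TGFβR-WT sets.

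Because the conditions hold the clusters in different shares, levels were compared within 5 clusters, GC-TFH, TR-TFH, Migratory, Activated and Pre-tumorigenic. Each set had at least 20 cells in all of them except Migratory, with 16 in the smaller TGFβR-WT set. Within each of them the summed proteasome level was higher in TGFβR-KO and lower in TGFβR-CA than in both TGFβR-WT sets. In GC-TFH it was 81.1 in TGFβR-KO, 73.9 and 77.2 in the TGFβR-WT sets and 73.0 in TGFβR-CA. In TR-TFH it was 60.6, 57.2, 58.7 and 56.7, in Migratory 72.0, 66.6, 62.0 and 59.4, in Activated 74.8, 70.2, 68.5 and 64.5, and in Pre-tumorigenic 58.7, 53.9, 56.4 and 50.1, in the same order. The gap between TGFβR-KO and pooled TGFβR-WT was 0.07 to 0.13 on the log2 scale, beside 0.10 over all cells. It was not spread evenly over the members. In Activated the sum of *Psmb8*, *Psmb9* and *Psmb10* was 14.1 in TGFβR-KO and 7.99 in pooled TGFβR-WT. That gap was 0.82 on the log2 scale, beside 0.10 for all members, at 74.8 and 69.7. In the other clusters the log2 gap of this sum also exceeded that of all members. It was 0.31 beside 0.11 in GC-TFH, 0.39 beside 0.07 in TR-TFH, 0.33 beside 0.13 in Migratory and 0.23 beside 0.08 in Pre-tumorigenic. In level units it was smaller than that of all members there, but only just in TR-TFH, at 11.5 and 8.79 beside 60.6 and 57.7. The clusters come from the same libraries.

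*Psmb8* was higher in TGFβR-KO than in both TGFβR-WT sets in each of the 5 clusters, by the widest margin in Activated. There it was at 9.07 in TGFβR-KO, 4.48 and 5.86 in the TGFβR-WT sets and 4.79 in TGFβR-CA, a ratio of 1.87 to pooled TGFβR-WT. In Migratory, TR-TFH, GC-TFH and Pre-tumorigenic the ratio was 1.44, 1.34, 1.29 and 1.14, and TGFβR-KO was above both TGFβR-WT sets in each. *Psmb10* in Activated was at 2.08 in TGFβR-KO, 1.15 and 0.814 in the TGFβR-WT sets and 1.22 in TGFβR-CA, a ratio of 1.97. In Migratory, *Psmb10* was at 1.76 in TGFβR-KO and 1.88 and 1.48 in the TGFβR-WT sets, so that it did not stand apart there, nor did *Psmb9* at 2.43 beside 2.48 and 2.37. In GC-TFH, *Psmb10* was at 1.502 in TGFβR-KO and 1.11 and 1.74 in the TGFβR-WT sets, and in Pre-tumorigenic at 1.13 beside 0.549 and 1.39. The sum of *Psme1* and *Psme2* was above both TGFβR-WT sets in TGFβR-KO in GC-TFH, TR-TFH, Migratory and Activated, with ratios of 1.17 in Migratory to 1.35 in TR-TFH. In Pre-tumorigenic it was not, at 7.11 in TGFβR-KO and 8.67 and 6.69 in the TGFβR-WT sets. The sum of *Psmb5*, *Psmb6* and *Psmb7* had ratios between 0.91 and 1.05, but single genes did not all follow the sum. In Pre-tumorigenic, *Psmb7* was at 0.896 in TGFβR-KO and 0.659 and 0.396 in the TGFβR-WT sets, a ratio of 1.87. There *Psmb5* went the other way, at 0.632 beside 1.54 and 0.892, a ratio of 0.58. The smaller TGFβR-WT set has 16 Migratory and 29 Activated cells and the larger 27 Pre-tumorigenic cells, so these values rest on few cells.

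**Figure D2:**
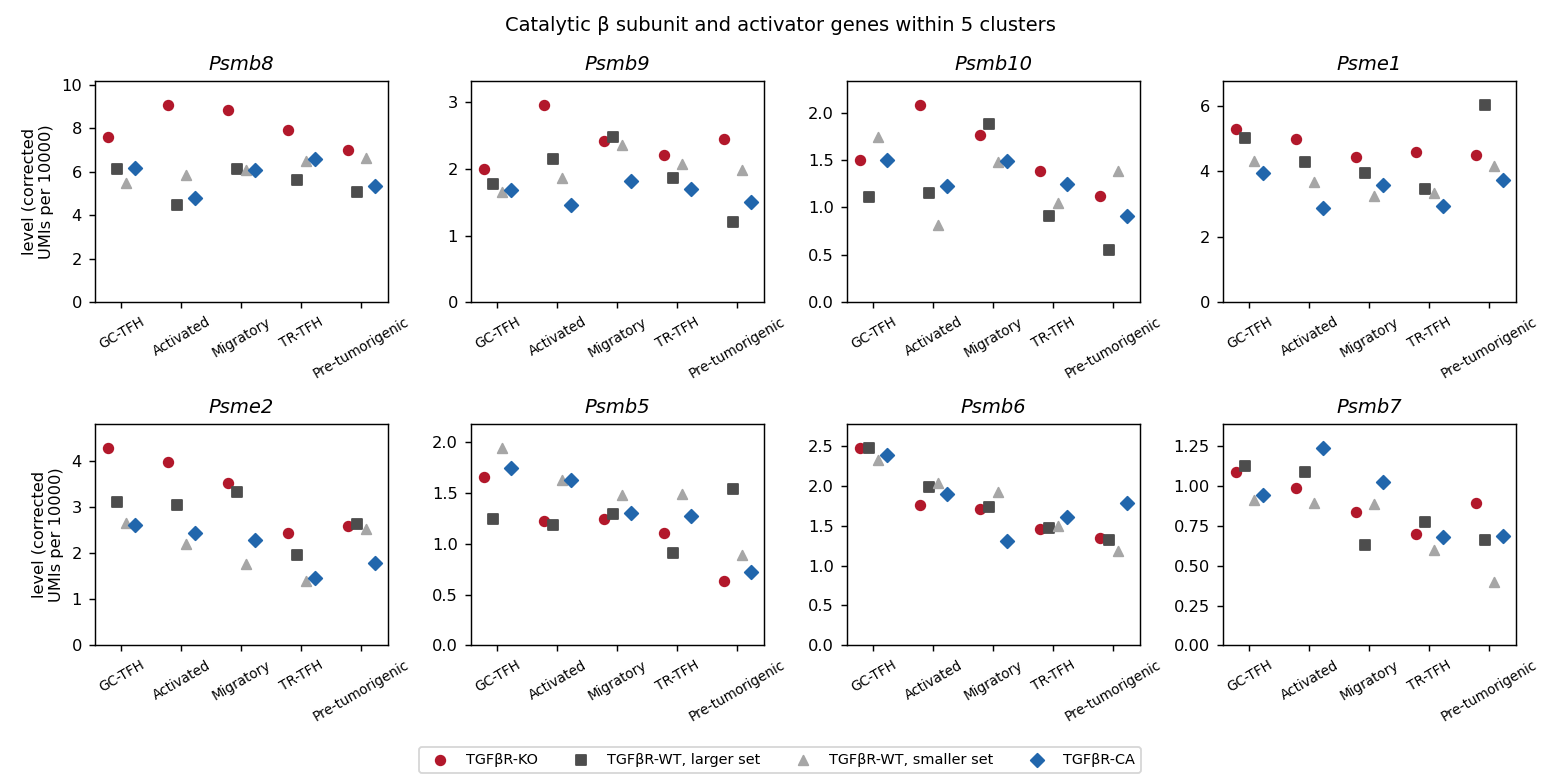
Level, in corrected UMIs per 10000, of the catalytic β genes and of *Psme1* and *Psme2* within GC-TFH, Activated, Migratory, TR-TFH and Pre-tumorigenic cells; each symbol is 1 set of cells, TGFβR-KO (circles), the larger (squares) and smaller (triangles) TGFβR-WT set and TGFβR-CA (diamonds). *Psmb8* of TGFβR-KO lies above the other sets in each cluster, whereas *Psmb5*, *Psmb6* and *Psmb7* mix the conditions.

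Between clusters the proteasome genes differed more than between conditions. The clusters were drawn by the authors from the expression of these same cells, so differences between clusters are described and not tested. In TGFβR-KO the summed level was 95.2 in Cycling, 81.1 in GC-TFH, 78.7 in CTL, 74.8 in Activated, 72.0 in Migratory, 60.6 in TR-TFH, 59.1 in Tumorigenic and 58.7 in Pre-tumorigenic. The last 3 lay close together, and between them and Migratory was the widest step but that to Cycling. The larger TGFβR-WT set gave 106 in Cycling, 73.9 in GC-TFH, 70.2 in Activated, 66.6 in Migratory, 57.2 in TR-TFH and 53.9 in Pre-tumorigenic. TGFβR-CA and the smaller TGFβR-WT set put GC-TFH, Activated, TR-TFH and Pre-tumorigenic in the same order. TGFβR-WT and TGFβR-CA held at most 13 CTL and 5 Tumorigenic cells each, so no comparison with TGFβR-KO was made in those clusters.

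**Figure D3:**
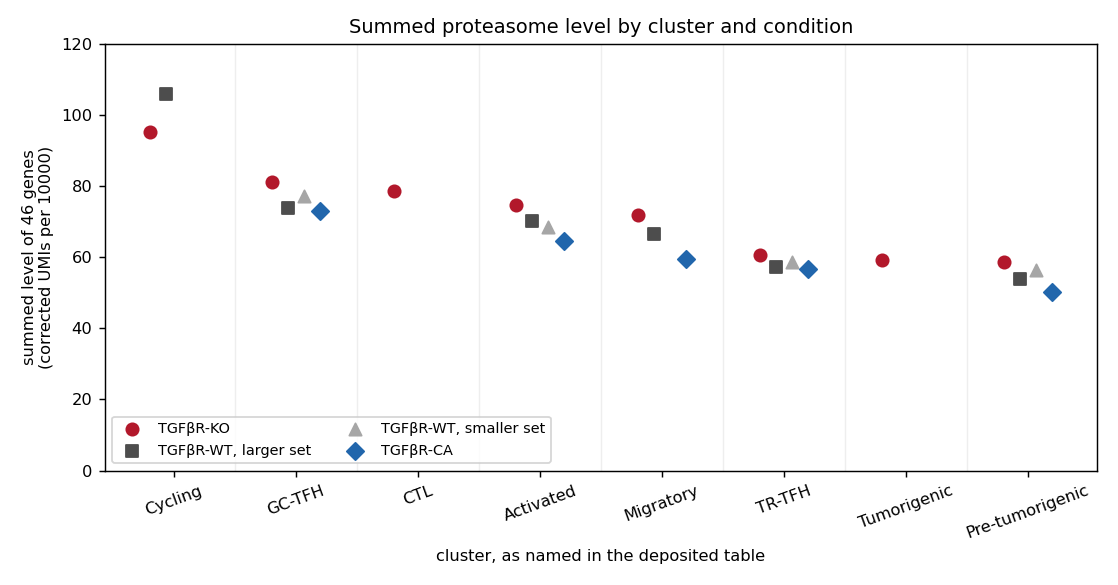
Summed level of 46 proteasome genes, in corrected UMIs per 10000, in each cluster of TGFβR-KO (circles), the larger (squares) and smaller (triangles) TGFβR-WT set and TGFβR-CA (diamonds), for clusters with at least 20 cells in a set. Cycling is highest in both sets that fill it, and TR-TFH, Tumorigenic and Pre-tumorigenic are lowest, near 60 or below.

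In Cycling cells of TGFβR-KO, 25 of 45 members were at least 1.5 times higher than in the other TGFβR-KO clusters, beside 23.2% of 7426 genes, and none was 1.5 times lower, beside 21.6%. They included 4 of 7 α genes, 5 of 7 constitutive β genes, 10 of 14 non-ATPase genes and 3 of 6 ATPase genes. *Psmd9*, an assembly chaperone, was at 0.620 in Cycling and 0.278 in the rest. *Psmg1* was at 0.589 and 0.264, *Psmc1* at 0.960 and 0.462, and *Psmd13* at 0.217 and 0.105. *Psma4* was at 4.03 in Cycling and 2.004 in the rest. Cycling was the highest of the 8 clusters for 30 of 45 members, beside 28.6% of 7395 genes. *Psmd4*, a ubiquitin receptor, had the lowest ratio, at 2.04 in Cycling and 2.58 in the rest, and besides it *Psmg4*, *Psme4* and *Psme1* lay below 0, with log2 ratios of -0.18, -0.17 and -0.07. *Psmb8*, *Psmb10*, *Psme1* and *Psme2* had log2 ratios between -0.07 and 0.15. *Psmb9*, at 4.40 and 2.46, was the 1 immunoproteasome gene among those called. The cluster holds 77 TGFβR-KO cells, of which 11 share a barcode with another set. Without cells of shared barcodes 19 members were called, and the log2 ratio of the summed level fell from 0.46 to 0.41.

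GC-TFH cells had the second highest level, and there most constitutive genes lay above the rest and the immunoproteasome genes below. Of 45 members, 8 were at least 1.5 times higher in GC-TFH than in the other TGFβR-KO clusters (*Psma6*, *Psmb4*, *Psmb6*, *Psmc5*, *Psmd1*, *Psmd6*, *Psme3* and *Psmg1*), beside 15.8% of 7484 genes, and none was that much lower, beside 10.1%. *Psme3* was at 0.779 in GC-TFH and 0.407 in the rest, and *Psmd1* at 0.966 and 0.540. *Psmb6* was at 2.47 and 1.64. The log2 ratio was 0.79 for *Psmg1* and 0.70 for *Psmc5* and *Psma6*. All 6 ATPase genes lay above 0 on the log2 scale, with a median of 0.49. Over all genes, 4606 of 7484 lay above 0, and the median was 0.13. *Psmb8*, *Psmb9* and *Psmb10* lay below 0, with a median of -0.21. *Psmb9* was at 2.01 in GC-TFH and 2.58 in the rest. Besides these genes, *Psmd4* and *Psmb1* lay below 0, at -0.16 and -0.15. The ratio of immunoproteasome to constitutive genes was 2.13 in GC-TFH and 3.55 in the rest of TGFβR-KO. It was also lower in GC-TFH than in the rest in the larger TGFβR-WT set (1.85 and 2.32), the smaller one (1.71 and 2.61) and TGFβR-CA (1.84 and 2.41). A ratio below the rest was not particular to GC-TFH. Cycling was at 2.34 and 3.39 in TGFβR-KO and at 1.64 and 2.28 in the larger TGFβR-WT set. Activated was at 1.57 in TGFβR-CA and 1.82 in the larger set of TGFβR-WT, both under the GC-TFH value of the same set.

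CTL cells stood at the other end of this ratio, with 4.60 in CTL and 3.19 in the rest of TGFβR-KO. Of 45 members, *Psmb8* and *Psmb10* were at least 1.5 times higher in CTL, beside 5.61% of 7468 genes, and none was that much lower, beside 11.1%. *Psmb8* was at 12.3 in CTL and 8.06 in the rest, and *Psmb10* at 2.71 and 1.59. *Psme1* was at 6.45 in CTL and 4.59 in the rest, and *Psme2* at 4.20 and 3.29. The lowest ratios were those of *Psmg1*, at 0.190 and 0.282, and *Psme4*, at 0.223 and 0.324, followed by *Psmf1*, *Psmd13* and *Psmc2* with log2 ratios of -0.28, -0.28 and -0.27. *Psmc4* was the 1 ATPase gene among the 5 highest ratios, at 0.37. In the interferon response list, 12 of 20 measured genes were at least 1.5 times higher in CTL and 0 lower. In the MHC class I processing list, 2 of 11 were higher and 0 lower. Both counts stand beside the same 5.61% and 11.1% of all genes.

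**Figure D4:**
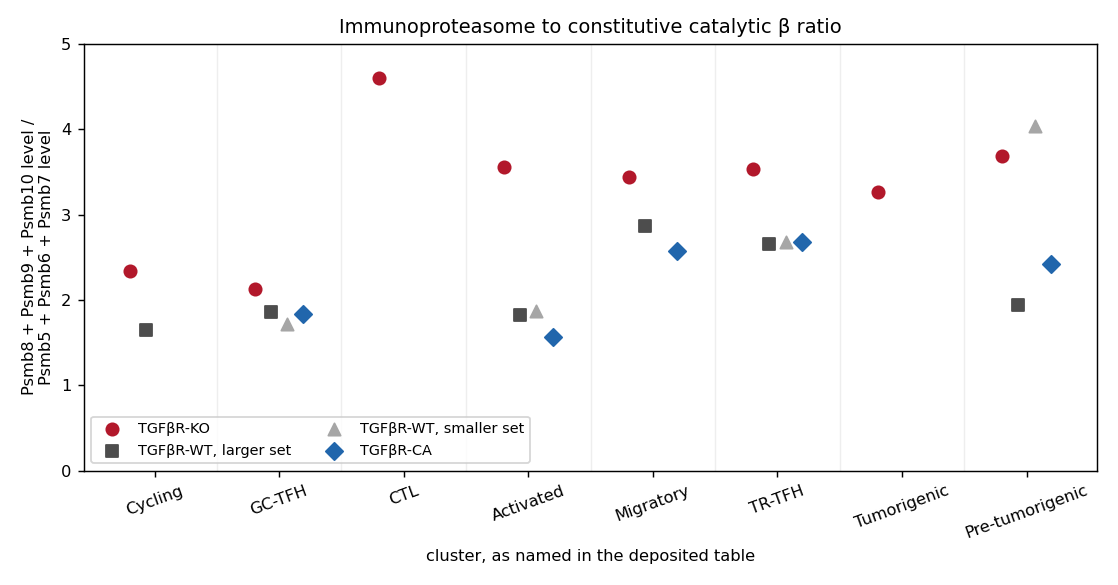
Summed level of *Psmb8*, *Psmb9* and *Psmb10* divided by that of *Psmb5*, *Psmb6* and *Psmb7*, in each cluster and set with at least 20 cells; symbols as in the plot of summed levels. In TGFβR-KO the ratio runs from 2.13 in GC-TFH to 4.60 in CTL, and TGFβR-KO lies above both TGFβR-WT sets wherever both have 20 cells, except in Pre-tumorigenic, where the TGFβR-WT sets are at 1.94 and 4.04.

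Tumorigenic cells, which the authors so named, had a low level of most members. Their summed level was 59.1, beside 71.7 in the other TGFβR-KO cells, and 40 of 45 members lay below 0 on the log2 scale, as did 5337 of 7480 genes. At least 1.5 times lower were 6 members (*Psma4*, *Psmb5*, *Psmc1*, *Psmd6*, *Psme4* and *Psmg1*), beside 25.9% of all genes, and none was that much higher, beside 6.43%. The median was -0.32 over the members and -0.25 over all genes. *Psmd6*, a lid subunit, was at 0.290 in Tumorigenic and 0.809 in the rest. *Psmg1* was at 0.142 and 0.291, and *Psme4* at 0.191 and 0.331. *Psmb5* was at 0.814 and 1.26. *Psmd8*, at 1.89 and 1.68, and *Psma3*, at 2.63 and 2.50, were among the 5 that lay above the rest, with *Psmd12*, *Psmd4* and *Psmb7* at log2 ratios of 0.08, 0.03 and 0.01. The ratio of immunoproteasome to constitutive genes was 3.26, beside 3.35 in the rest, with all 3 immunoproteasome genes below 0 on the log2 scale. Pre-tumorigenic cells of TGFβR-KO, with a summed level of 58.7, had a ratio of 3.68. For 43 of 45 members, TR-TFH, Tumorigenic or Pre-tumorigenic was the lowest of the 8 clusters, beside 57.6% of all genes. Ribosomal protein genes took 33.7% of UMIs in TR-TFH and 25.6% in Tumorigenic cells of TGFβR-KO, and their part in these levels was not tested. With ribosomal protein and mitochondrial genes out of the denominator, the Tumorigenic median was -0.38 over the members and -0.30 over all genes. By that denominator 8 rather than 6 members were at least 1.5 times lower in Tumorigenic. TR-TFH was not recomputed in this way.

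**Figure D5:**
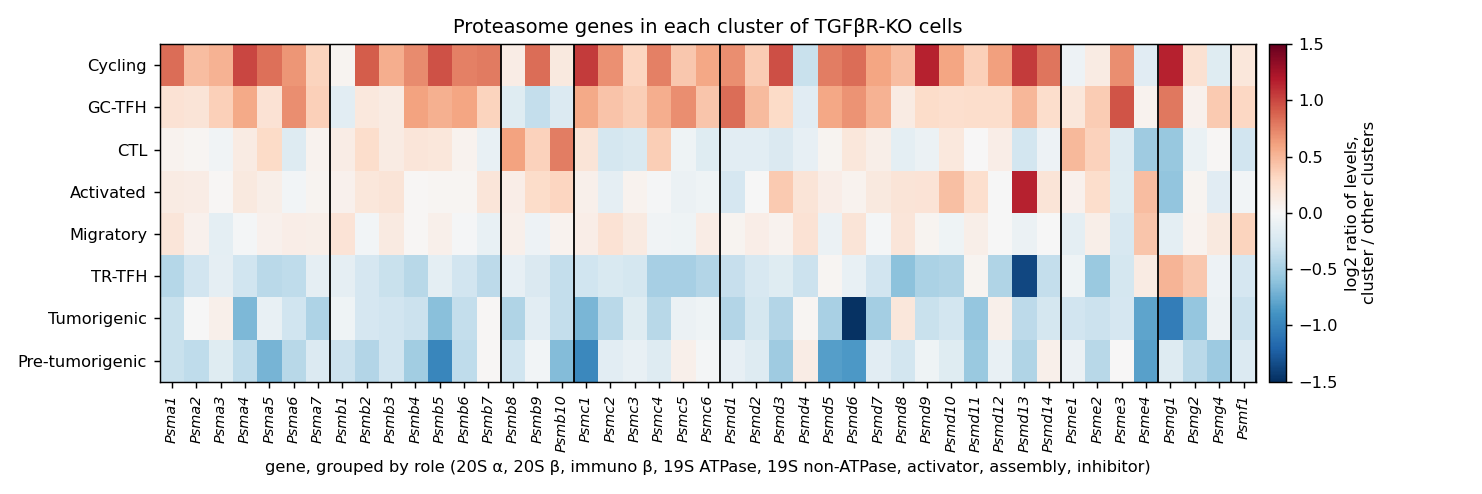
Log2 ratio of the level of each of 45 proteasome genes in a cluster to the other clusters of TGFβR-KO (color, from -1.5 to 1.5), with genes grouped by role between black lines and clusters ordered by summed level. Most columns turn from red in Cycling to blue in Pre-tumorigenic, while *Psmb8*, *Psmb10* and *Psme1* are most red in CTL.

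The members varied together to different degrees across 18 combinations of condition and cluster with at least 50 cells. The log2 level of each was correlated with that of the sum of the other members. These correlations are descriptions, and the points share libraries and a denominator. Pearson's r had a median of 0.839 over the 7 α genes, 0.765 over the 7 constitutive β genes, 0.615 over the non-ATPase genes and 0.563 over the ATPase genes. *Psmb4* and *Psma5* had the highest values, 0.87 each, and *Psmf1* (0.11) and *Psmd4* (0.12) the lowest. With the sum of the other immunoproteasome genes, r was 0.85 for *Psmb8*, 0.78 for *Psmb9* and 0.82 for *Psmb10*. *Psmb1* (0.79), *Psme1* (0.70) and *Psme2* (0.69) came near them, whereas *Psmb5* (0.24), *Psmb6* (0.17) and *Psmb7* (0.18) did not. Among 6972 other genes, those most like the summed level were *Ndufb7* (0.92), *Rps27l* (0.92), *Ndufa4* (0.91), *Cyc1* (0.895) and *Smdt1* (0.895). Those most like the sum of the immunoproteasome genes were *Atp5h* (0.85), *Nrros* (0.82), *Sidt1* (0.82), *Ankrd13a* (0.81) and *Hdgfl3* (0.81).

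Genes that work with the proteasome were counted in the same way between conditions. Of all genes, 2.76% were called higher and 5.45% lower in TGFβR-KO, and 1.21% higher and 2.73% lower in TGFβR-CA. Of 22 measured ubiquitin and proteasome partners, 1 was at least 1.5 times higher in TGFβR-KO than in both TGFβR-WT sets (*Zfand2a*, at 0.132 beside 0.0638 and 0.0742, a shuttle protein induced by proteotoxic stress) and 0 were lower. *Zfand2a* had only 221 UMIs in all cells. In TGFβR-KO it was highest in Pre-tumorigenic (0.482) and Tumorigenic (0.375) cells and at most 0.217 in the other clusters. TGFβR-WT had 5 Tumorigenic cells, and the part of cluster shares in this call was not tested. In TGFβR-CA 0 of the partners passed in either direction. Of 11 MHC class I processing genes, 0 passed in TGFβR-KO and 0 in TGFβR-CA. In TGFβR-KO, 2 of these 11 lay above both TGFβR-WT sets and 4 below both, beside 18.1% and 50.6% of all genes. In TGFβR-CA, 7 of these 11 lay below both TGFβR-WT sets, beside 41.0% of all genes. Of 20 interferon response genes, 4 were higher in TGFβR-KO (*Gbp2*, *Gbp7*, *Iigp1* and *Bst2*) and 0 lower, and 12 of 20 lay above both TGFβR-WT sets, beside 18.1% of all genes. *Gbp7*, an interferon-γ-induced GTPase, was at 1.16 in TGFβR-KO, 0.618 and 0.684 in the TGFβR-WT sets and 0.559 in TGFβR-CA. *Gbp2* was at 0.536 in TGFβR-KO, 0.255 and 0.330 in the TGFβR-WT sets and 0.274 in TGFβR-CA. In TGFβR-CA, *Iigp1* was the 1 interferon response gene that passed, at 0.465 beside 0.295 and 0.247. Of 14 proliferation genes, 0 passed in TGFβR-KO and 9 were lower in TGFβR-CA, where the Cycling cluster has 9 cells.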

How the data were processed

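Single-cell libraries were made with 10x 3′ chemistry from sorted cells of 4 samples (1 TGFβR-KO, 1 TGFβR-CA and 2 TGFβR-WT). The authors used Cell Ranger 3.1.0 (named in the submitters' processing notes) and mm10, filtered cells on detected genes and mitochondrial share, normalised with SCTransform, integrated the samples and removed γδ T and epithelial cells. The deposited table holds natural log values, ln(1 + corrected UMIs), for 13265 genes in 5080 cells, with the authors' cluster of each cell. Doublet removal is not stated, and none was done here.

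Values were turned back to corrected UMIs, all within 1e-06 of whole numbers. Corrected UMIs differ from raw counts, and neither a count model nor counting intervals were applied. TGFβR-KO and TGFβR-CA are 1 sample each and TGFβR-WT cells are not tied to samples, so no test was made. Median depth was 3440.0 to 3984.5 corrected UMIs per cell over the 4 sets, and SCTransform evens out depth between cells. A gene was counted with at least 200 UMIs in the table and no group at 0. Named were the catalytic and activator genes, each member called, and per comparison up to 5 members with the largest increase and decrease (by the smaller log2 ratio to the TGFβR-WT sets, or the log2 ratio between clusters), the 5 genes most correlated with each sum, and list genes that were called. *Psmb1*, *Psma2*, *Psma3*, *Psmc3* and *Psmd11* were named after their values were seen. Members, lists and alternatives were chosen with earlier results of these data known. Marker and pathway lists came from textbook knowledge. Promoters of 39 of 46 genes were matched by symbol in RefSeq (GRCm38.p6). Computations used Python 3.11.15, numpy 2.4.6, scipy 1.17.1, pandas 2.3.3 and matplotlib 3.10.9, and were tested on simulated data.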

Additional observations from a re-analysis of the deposited data

Results flagged for a closer look

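For 10 of 45 members, TGFβR-KO lay on one side of both TGFβR-WT sets and TGFβR-CA on the other, which 7.49% of all genes did with TGFβR-KO higher and 9.11% with TGFβR-CA higher. None of these differences was tested, the comparisons share the TGFβR-WT cells, and TGFβR-KO and TGFβR-CA were sequenced in different batches. Of these, 6 were higher in TGFβR-KO, with log2 ratios of TGFβR-KO to TGFβR-CA of 0.81 for *Psme2*, 0.59 for *Psmb9*, 0.54 for *Psme1*, 0.36 for *Psma6*, 0.35 for *Psmb1* and 0.15 for *Psmb3*. The other 4 were higher in TGFβR-CA, with log2 ratios of -0.74 for *Psmd13*, -0.61 for *Psmg1*, -0.54 for *Psmd11* and -0.46 for *Psmd12*.

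The summed level of *Psmb5*, *Psmb6* and *Psmb7* was above both TGFβR-WT sets in TGFβR-KO cells of GC-TFH and below both in Activated, and the log2 ratios to TGFβR-WT in these clusters differed by 0.20. For *Psmb6* alone, TGFβR-KO was above both sets in Pre-tumorigenic and below both in TR-TFH, Migratory and Activated, with a difference of 0.22 between the log2 ratios. Neither difference was tested.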

How the results depend on the processing

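The spread used here is the SD between the 2 TGFβR-WT sets. The summed level of TGFβR-KO over TGFβR-WT (0.10 on the log2 scale) was 0.17 with ribosomal protein and mitochondrial genes out of the denominator, -0.0027 without the 5 members with the highest level, and 0.08 to 0.13 with either TGFβR-WT set left out. The immunoproteasome ratio of TGFβR-KO over TGFβR-WT (0.56) was 0.48 with equal weight of GC-TFH, TR-TFH, Migratory and Activated, 0.45 with Pre-tumorigenic in place of Migratory, 0.47 without *Psmb8* and *Psmb5*, and 0.49 to 0.60 with either set left out. That of TGFβR-CA (-0.016) was -0.14 with Pre-tumorigenic in place of Migratory and took either sign, -0.09 to 0.02, with either set left out. The summed level of Cycling over the rest (0.46) was 0.33 with the other denominator and 0.62 without the 5 highest members. With the looser ratio, 3 members rather than 0 were higher and 3 rather than 0 lower in TGFβR-KO, and 1 rather than 0 was lower in TGFβR-CA. With 1 TGFβR-WT set left out, 1 to 2 were higher and 1 to 2 lower in TGFβR-KO, and 1 to 2 were lower in TGFβR-CA. The call of *Psmd13* in TGFβR-CA was lost, leaving 0, with 0.1 UMIs per 10000 added and with equal weight of the clusters that include Migratory, not with Pre-tumorigenic in its place. Why these values moved was not tested. Of 21 summary values each for TGFβR-KO and TGFβR-CA, 16 and 20 stayed within the SD. With the other denominator 17 rather than 25 members were called in Cycling, and the median of the activators there went from 0.03 to -0.10. Alternatives for the counts of members per cluster, for the ratios in CTL and GC-TFH, the weighting with Pre-tumorigenic and the sum with *Psmc3ip* were chosen after seeing the data. No paired analysis was possible because the result comes from no test and the TGFβR-WT cells carry no replicate number. Depth limits the low members most, such as *Psmd13* with 245 UMIs in all cells.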
